A study of Mus musculus with 6 samples.

Results

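The CC chemokines described here are 10 genes (Ccl2, Ccl3, Ccl4, Ccl5, Ccl6, Ccl7, Ccl9, Ccl12, Ccl22 and Ccl24) of the 25700 mouse genes counted by bulk RNA-Seq in bone marrow-derived macrophages (BMDMs). They were taken by name from the family, with earlier results of these data known. The 14 other CC chemokine genes of the fixed lists were mostly not counted at all (9 of 14). Marrow came from C57BL/6J mice aged 8 to 10 weeks and was grown in M-CSF (100 ng/ml), which drives marrow progenitors to become macrophages. Heme-albumin (300 μM) was added on day 3, with albumin alone given to control cultures, and RNA was collected on day 7. No genetic change was made in either group, and there were 3 libraries per group, each from the macrophages of 1 mouse. The comparison asks how exposure to heme, as it arises where red blood cells break down, changes the chemokine mRNA that macrophages carry.

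CC chemokines are small secreted proteins named for a pair of adjacent cysteines near the start of the mature protein. They bind receptors on the surface of leukocytes and guide these cells along a gradient into tissue. Macrophages are a major source of several members, among them the ligands of CCR2, which draw monocytes from the blood, and the ligands of CCR1, which act on monocytes and macrophages. In mice many genes of the family, 8 of these 10 among them, lie on chromosome 11 in a pair of clusters, called after the monocyte chemoattractant proteins (MCP) and the macrophage inflammatory proteins (MIP).

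The coding sequences show the feature that defines the family. Each line gives 42 bases of the coding strand in GENCODE M21 transcripts, in frame, with the codons of the adjacent cysteines in capitals, for the neighbors Ccl6 and Ccl9, the neighbors Ccl3 and Ccl4, and the CCR2 ligands Ccl2, Ccl7 and Ccl12.
Ccl6: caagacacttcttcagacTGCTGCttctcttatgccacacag
Ccl9: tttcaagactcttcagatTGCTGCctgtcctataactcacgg
Ccl3: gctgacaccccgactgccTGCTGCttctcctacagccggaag
Ccl4: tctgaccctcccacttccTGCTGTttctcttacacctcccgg
Ccl2: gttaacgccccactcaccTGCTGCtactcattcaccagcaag
Ccl7: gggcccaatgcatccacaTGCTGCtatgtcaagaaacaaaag
Ccl12: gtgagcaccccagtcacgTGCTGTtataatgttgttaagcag
All 10 coding sequences held such a pair of codons. In Ccl6 and Ccl9 it began at codon 50 and codon 57, and in the other 8 genes at codons 33 to 36; Ccl24 had a further pair nearer to its start. Ccl6 and Ccl9 also had 4 exons in these transcripts, where the 8 others had 3. The closest pairs in coding sequence were Ccl3 with Ccl4 (72.8% identical bases) and Ccl6 with Ccl9 (70.5%). The longest run of identical bases that any pair of these transcripts shared was 25 bases, between Ccl6 and Ccl9. No exon of the 10 genes overlapped an exon of another annotated gene.

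Libraries held 27201038 to 32994595 counts. Levels below are CPM after TMM normalization, a scaling that makes libraries of unlike depth comparable. Where a library has a count of 0, its level may still reach 0.0829 to 0.118 CPM (3 counts), a limit that covers counting error only. All 10 macrophage markers checked against the label passed the filter on low counts. With heme, 1 was higher, 7 were lower and 2 were not called, where 31.7% of all 12433 tested genes were higher and 30.8% lower. These 10 markers had a summed level of 32272 to 38111 CPM in control and 36618 to 39892 CPM in heme libraries. Lyz2, the lysozyme gene, held most of it. Of 8 T and NK cell markers, Cd3e, Cd3g and Gzma had no count in any library, and Cd3d, Trac and Nkg7 had 3, 2 and 5 counts in the heme libraries together and 0 in control. Ncr1 had 1 count, in a control library. Klrb1c was the only one of the 8 to pass the filter and was not called (adjusted p = 0.0862 in edgeR). Of 8 tested neutrophil markers (of 11), all 8 were higher with heme, beside 31.7% of all tested genes. Of those that did not pass the filter, Retnlg had 16 counts in the control and 4 in the heme libraries together. Ly6g had 1 and 9, and Camp had 9 and 43. The summed level of the 11 was 35.1 to 47.6 CPM in control and 1344 to 1481 CPM in heme libraries, and 6.99 to 11.2 CPM and 90.0 to 133 CPM without the collagenase gene Mmp8. Of 8 monocyte markers, 6 were higher and 1 lower, and their summed level was 72.3 to 149.5 CPM in control and 346 to 422 CPM in heme libraries. Of 6 mast cell and basophil markers, 3 were tested, of which 2 were higher and 1 was not called. Their summed level was 0.567 to 0.948 CPM in control and 2.22 to 4.77 CPM in heme libraries. The B cell and erythroid lists each had 1 tested marker, called lower, and the stromal list had 1, called higher. Whether these markers reflect such cells, and the part of any such cells in the chemokine results, was not tested. In bulk RNA, fewer cells of a type and less RNA per cell cannot be told apart.

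Heme-treated BMDMs carried less mRNA of Ccl4, Ccl5, Ccl6, Ccl9 and Ccl12. These were 5 of the 8 members that passed the filter on low counts, where 30.8% of all 12433 tested genes were lower. Only Ccl2 was called higher (1 of 8), where 31.7% of all tested genes were higher. The test was edgeR's quasi-likelihood test across all genes, and a gene was called at a Benjamini-Hochberg adjusted p under 0.05. Ccl3 and Ccl7 did not pass it. In either direction 6 of the 8 were called, beside 62.5% of all tested genes, so the family was not far from the background in how many of its members differed. The median log2 fold change of heme over control for the 8 genes was -1.38, beside 0.00 for all tested genes. In 5 of the 8, the heme and control libraries did not overlap, where 68.8% of all tested genes had no overlap in either direction. Ccl22 and Ccl24 did not pass the filter and are described by their counts.

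**Figure D1:**
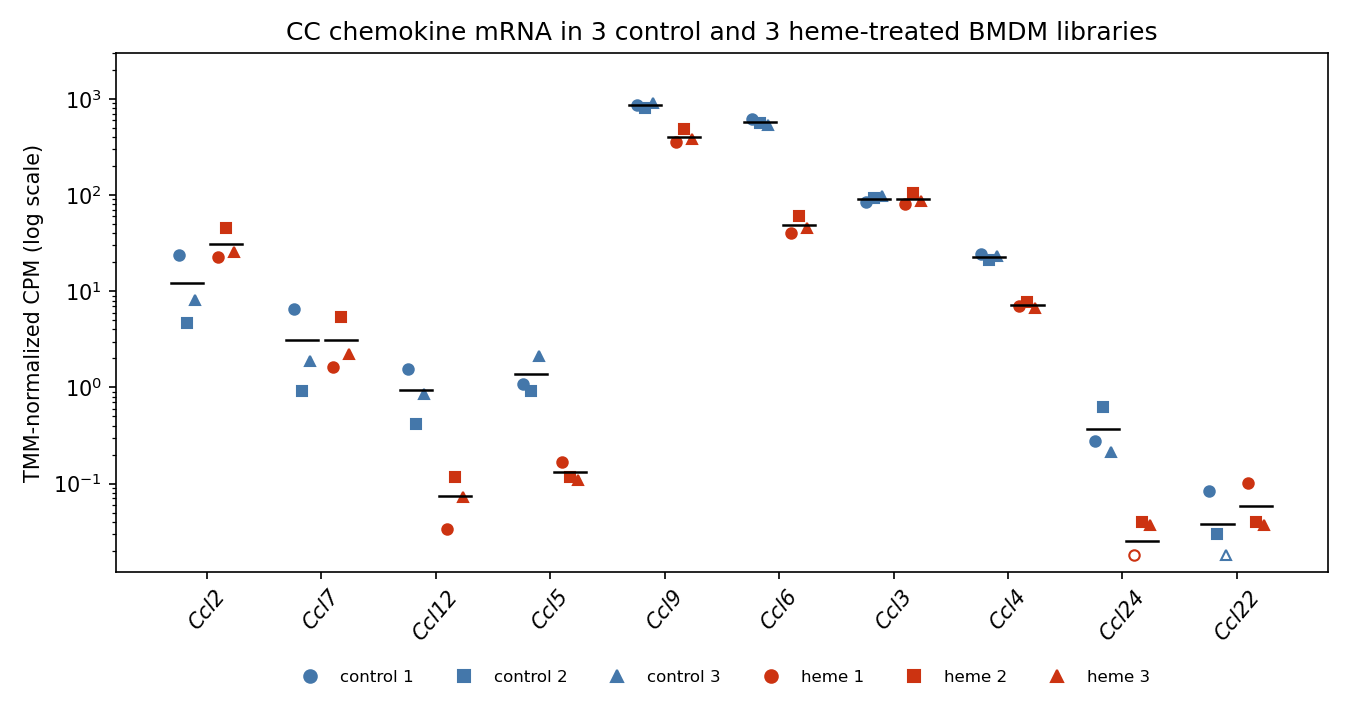
TMM-normalized CPM (log scale) of the 10 CC chemokine genes in 3 control (blue) and 3 heme-treated (red) BMDM libraries; symbols mark the replicate numbers, black lines are group means, and open symbols at the bottom stand for a count of 0. Ccl6 runs from 541 to 619 CPM in control and from 40.0 to 60.3 CPM in heme libraries, while the groups overlap for Ccl2, Ccl3, Ccl7 and Ccl22.

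Ccl6 and Ccl9 were the most abundant members in control BMDMs. Their proteins signal through CCR1 and attract myeloid cells, and their genes lie beside each other in the MIP cluster of chromosome 11, 9245 bases apart. Ccl6 (minus strand of GRCm38, from 83587882 to 83593087) had 619, 556 and 541 CPM in control replicates 1, 2 and 3 and 40.0, 60.3 and 45.8 CPM in heme replicates 1, 2 and 3. All heme libraries were thus far below all control libraries. The group means were 572 ± 41.4 and 48.7 ± 10.5 CPM (SD, n = 3), an 11.8-fold lower level with heme (log2 fold change -3.55, standard error 0.14, adjusted p = 6.69e-08 in edgeR). Ccl9 (minus strand, from 83572919 to 83578636) had 863, 805 and 898 CPM in control and 352, 481 and 379.7 CPM in heme libraries. The groups did not overlap here either, but the difference was smaller, 2.11-fold (log2 fold change -1.08, standard error 0.11, adjusted p = 2.78e-05 in edgeR).

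The fall of Ccl6 beyond that of Ccl9 can be read within each library, without any scaling. The ratio of Ccl6 to Ccl9 counts was 0.717, 0.691 and 0.603 in control and 0.114, 0.125 and 0.121 in heme libraries. The groups did not overlap (p = 0.1 in an exact permutation test, two-sided, the lowest value possible with 3 libraries per group). The next genes along the cluster, Ccl3 and Ccl4, are 13228 bases apart and encode proteins that attract monocytes and T cells; CCL3 is a ligand of CCR1. Ccl3 (minus strand, from 83647844 to 83649355) had 84.0, 94.0 and 97.4 CPM in control and 79.8, 104 and 87.4 CPM in heme libraries. The libraries of the groups lay among each other, and the 95% interval of the log2 fold change was -0.25 to 0.21 (estimate -0.02, adjusted p = 0.867 in edgeR). Scaling by library size alone put the median of all tested genes at -0.22 and the Ccl3 estimate at -0.24 (adjusted p = 0.0603 in edgeR).

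Ccl4 (plus strand, from 83662584 to 83664683) had 24.3, 20.9 and 23.0 CPM in control and 7.04, 7.70 and 6.67 CPM in heme libraries. It was 3.18-fold lower with heme, with no overlap (log2 fold change -1.67, standard error 0.10, adjusted p = 6.01e-07 in edgeR). The ratio of Ccl4 to Ccl3 counts fell from 0.289, 0.222 and 0.236 to 0.0881, 0.0738 and 0.0764, again without overlap (p = 0.1, exact permutation test). Ccl5, at the other end of the MIP cluster (minus strand, from 83525778 to 83530518), encodes a ligand of CCR1 and CCR3 that is best known from T cells. It was low in all libraries, with 39, 31 and 69 counts in control and 5, 3 and 3 counts in heme libraries. The T and NK cell markers summed to 0.0597 to 0.359 CPM in control and 0.337 to 0.660 CPM in heme libraries. Klrb1c made up most of this sum in every library. Which cells carried the Ccl5 mRNA was not tested. Ccl5 itself had 1.37 ± 0.644 and 0.132 ± 0.0315 CPM (SD, n = 3), and every heme library was below every control library (log2 fold change -3.31, standard error 0.48, adjusted p = 0.000250 in edgeR).

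**Figure D2:**
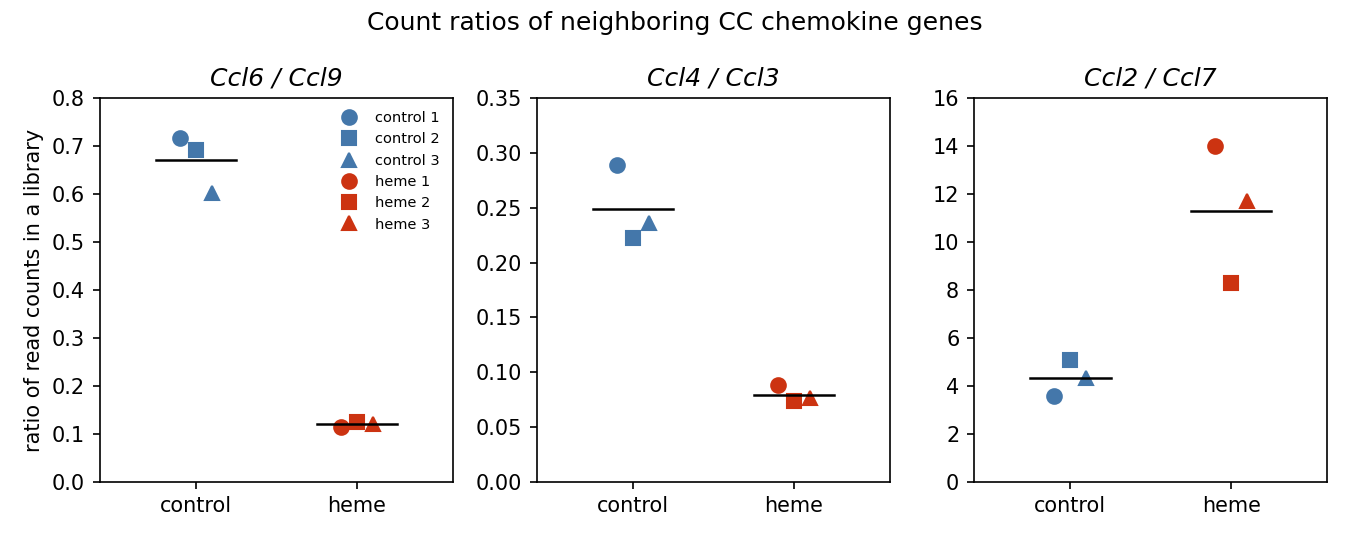
Ratios of read counts within each library for 3 pairs of neighboring genes, Ccl6 to Ccl9, Ccl4 to Ccl3 and Ccl2 to Ccl7; points are libraries, lines are group means, and each axis starts at 0. The groups do not overlap in any of the 3 panels; the means are 0.670 and 0.12 for Ccl6 to Ccl9, 0.249 and 0.0794 for Ccl4 to Ccl3, and 4.34 and 11.3 for Ccl2 to Ccl7, in control and heme libraries.

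Promoters of Ccl3, Ccl6 and Ccl9 are shown because these near neighbors ranged from a strong fall to no called change. RefSeq promoters (GRCm38.p6) were found for Ccl3, Ccl6, Ccl9, Ccl12 and Ccl22, 5 of the 10 members. Each line below gives the 250 bases before the start, on the gene's own strand (minus for all 3), with motif matches in capitals.
Ccl9, chr11:83578637-83578886: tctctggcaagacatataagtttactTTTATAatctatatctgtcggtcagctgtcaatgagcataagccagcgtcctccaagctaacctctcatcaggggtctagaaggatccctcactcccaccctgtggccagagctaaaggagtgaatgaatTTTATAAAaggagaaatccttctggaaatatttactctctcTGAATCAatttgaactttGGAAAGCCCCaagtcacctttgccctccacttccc
Ccl6, chr11:83593088-83593337: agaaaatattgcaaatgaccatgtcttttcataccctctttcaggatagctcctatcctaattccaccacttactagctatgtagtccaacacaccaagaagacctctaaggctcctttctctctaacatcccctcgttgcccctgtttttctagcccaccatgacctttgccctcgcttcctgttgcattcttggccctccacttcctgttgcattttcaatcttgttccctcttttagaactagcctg
Ccl3, chr11:83649379-83649628: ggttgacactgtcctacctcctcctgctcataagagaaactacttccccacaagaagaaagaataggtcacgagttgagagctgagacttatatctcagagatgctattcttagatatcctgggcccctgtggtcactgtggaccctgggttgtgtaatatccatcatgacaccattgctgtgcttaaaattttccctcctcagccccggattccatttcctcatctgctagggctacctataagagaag
Both strands were searched for 7 motifs, of which the NF-κB site and the interferon-stimulated response element are given by name alone. TATA was read as TATAAA. The antioxidant response element, which NRF2 binds, was read as TGACNNNGC, the STAT site as TTCNNNGAA and the PU.1 site as GAGGAAGT. AP-1 was read as TGANTCA. The AP-1 and antioxidant motifs can overlap. The Ccl9 window held an NF-κB match 35 bases and an AP-1 match 53 bases before the start, and 3 TATA matches, of which 2 overlapped. Such matches are in 7.25%, 6.75% and 12.4% of the 32851 RefSeq promoters over the same length. The windows of Ccl6, Ccl3 and Ccl22 held no match to any of the 7 motifs, and that of Ccl12 held 1 TATA match 31 bases before the start. The antioxidant response element, found in 10.2% of promoters, was in none of the 5 windows. These are matches of letters and not bound sites.

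The CCR2 ligands of the MCP cluster differed from each other and varied more between libraries. Ccl2, the main monocyte attractant of the family (plus strand, from 82035571 to 82037453), had 23.6, 4.71 and 8.10 CPM in control and 22.7, 45.0 and 25.7 CPM in heme libraries. Control replicate 1 lay above heme replicate 1, so the groups overlapped, and the highest control library was 5.0 times the lowest. The means were 12.1 ± 10.0 and 31.1 ± 12.1 CPM (SD, n = 3), and the log2 fold change was 1.35 (standard error 0.49, 95% interval 0.25 to 2.44, adjusted p = 0.0359 in edgeR). This call was lost in DESeq2 (adjusted p = 0.110), when libraries were scaled by size alone (1.12, adjusted p = 0.0706), and without control replicate 2 (0.95), control replicate 3 (1.12), heme replicate 2 (0.99) or heme replicate 3 (1.47), with adjusted p = 0.0606, 0.113, 0.144 and 0.0576. Without control replicate 1 the log2 fold change was 2.27 (adjusted p = 8.71e-05).

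Ccl7, 8258 bases from Ccl2, encodes a further ligand of CCR2 that also binds CCR1 and CCR3. It had 6.57, 0.925 and 1.86 CPM in control and 1.62, 5.41 and 2.20 CPM in heme libraries. The groups overlapped, and the 95% interval of its log2 fold change ran from -1.52 to 1.40 (estimate -0.06, adjusted p = 0.945 in edgeR). The estimate was 1.11 without control replicate 1 and -0.73 without heme replicate 2 (adjusted p = 0.0672 and 0.415), so single libraries set its sign. The ratio of Ccl2 to Ccl7 counts was 3.58, 5.10 and 4.34 in control and 14.0, 8.31 and 11.7 in heme libraries, with no overlap (p = 0.1, exact permutation test).

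Ccl12, a CCR2 ligand gene of mice (plus strand, from 82101845 to 82103400), had 56, 14 and 28 counts in control and 1, 3 and 2 counts in heme libraries. Its levels were 1.55, 0.418 and 0.856 CPM and 0.0337, 0.118 and 0.0733 CPM. All heme libraries were lower (log2 fold change -3.63, standard error 0.69, adjusted p = 0.00131 in edgeR). In Ccl2, Ccl7 and Ccl12 alike, control replicate 1 was the highest and control replicate 2 the lowest control library, and heme replicate 2 was the highest and heme replicate 1 the lowest heme library. Heme replicate 2 was the highest heme library in 7 of the 8 tested members, all but Ccl5. The share of all tested genes that were highest in heme replicate 2 was not computed, so this order cannot be assigned to the family.

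**Figure D3:**
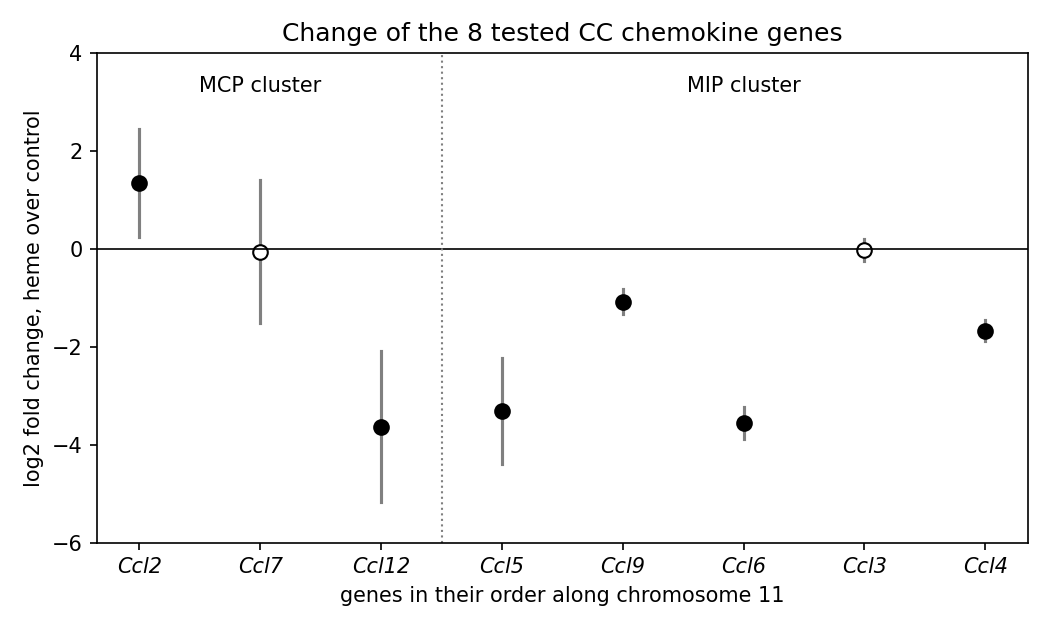
Log2 fold change of heme over control (edgeR) for the 8 tested CC chemokine genes in their order along chromosome 11; bars are 95% intervals, filled points passed an adjusted p of 0.05 and open points did not. The estimates run from -3.63 for Ccl12 to 1.35 for Ccl2, with Ccl3 at -0.02 and Ccl7 at -0.06.

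The remaining members lie on other chromosomes and were close to undetected. Ccl24, a ligand of CCR3 that attracts eosinophils (chromosome 5, from 135569937 to 135573049), had 10, 21 and 7 counts in control and 0, 1 and 1 counts in heme libraries. The pooled level was 15.3-fold higher in control, with an exact binomial interval (95%) of 3.94 to 131 that covers counting error only. With no filter on low counts, edgeR gave a log2 fold change of -3.74 (adjusted p = 0.00188). Ccl22, a ligand of CCR4 known from dendritic cells and activated macrophages (chromosome 8, from 94745590 to 94751699), had 3, 1 and 0 counts in control and 3, 1 and 1 counts in heme libraries. Dendritic cell markers summed to 0.887 to 2.03 CPM in control and 0.990 to 1.22 CPM in heme libraries. A difference in Ccl22 was not detectable at this depth.

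Levels of different genes were compared per length, as RPKM (CPM per kilobase of merged exons). In control BMDMs the order was Ccl6 (319 ± 23.1 RPKM), Ccl9 (281 ± 15.4), Ccl3 (119.9 ± 9.07), Ccl4 (34.4 ± 2.58), Ccl2 (10.7 ± 8.83), Ccl7 (3.90 ± 3.78), Ccl12 (1.75 ± 1.06), Ccl5 (1.43 ± 0.671), Ccl24 (0.287 ± 0.172) and Ccl22 (0.0162 ± 0.0181; SD, n = 3). Neighbors in this order were separate in all 3 libraries, except Ccl2 with Ccl7, Ccl7 with Ccl12 and Ccl12 with Ccl5. With heme, Ccl9 (133 ± 22.4 RPKM) and Ccl3 (118 ± 16.4) stood first and overlapped. Ccl2 (27.3 ± 10.6) and Ccl6 (27.1 ± 5.84) followed and overlapped as well, so Ccl6 moved from the first place to the level of Ccl2. Among the 12433 tested genes, Ccl6 ranked 102 by mean RPKM in control and 1621 with heme, while Ccl3 ranked 316 and 359.

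The summed level of the 10 genes was 808, 736 and 771 RPKM in control and 275, 386 and 300.0 RPKM in heme libraries. All heme libraries were lower. The share of Ccl6 in this sum was 41.3% ± 1.93 in control and 8.44% ± 0.307 in heme libraries, and that of Ccl3 was 15.6% ± 1.73 and 37.1% ± 1.53 (SD, n = 3). The share of Ccl9 changed less, from 36.4% ± 1.61 to 41.5% ± 0.557, and that of Ccl2 was 1.35% ± 1.06 and 8.32% ± 1.63 (SD, n = 3). As shares of a sum, these values depend on each other.

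**Figure D4:**
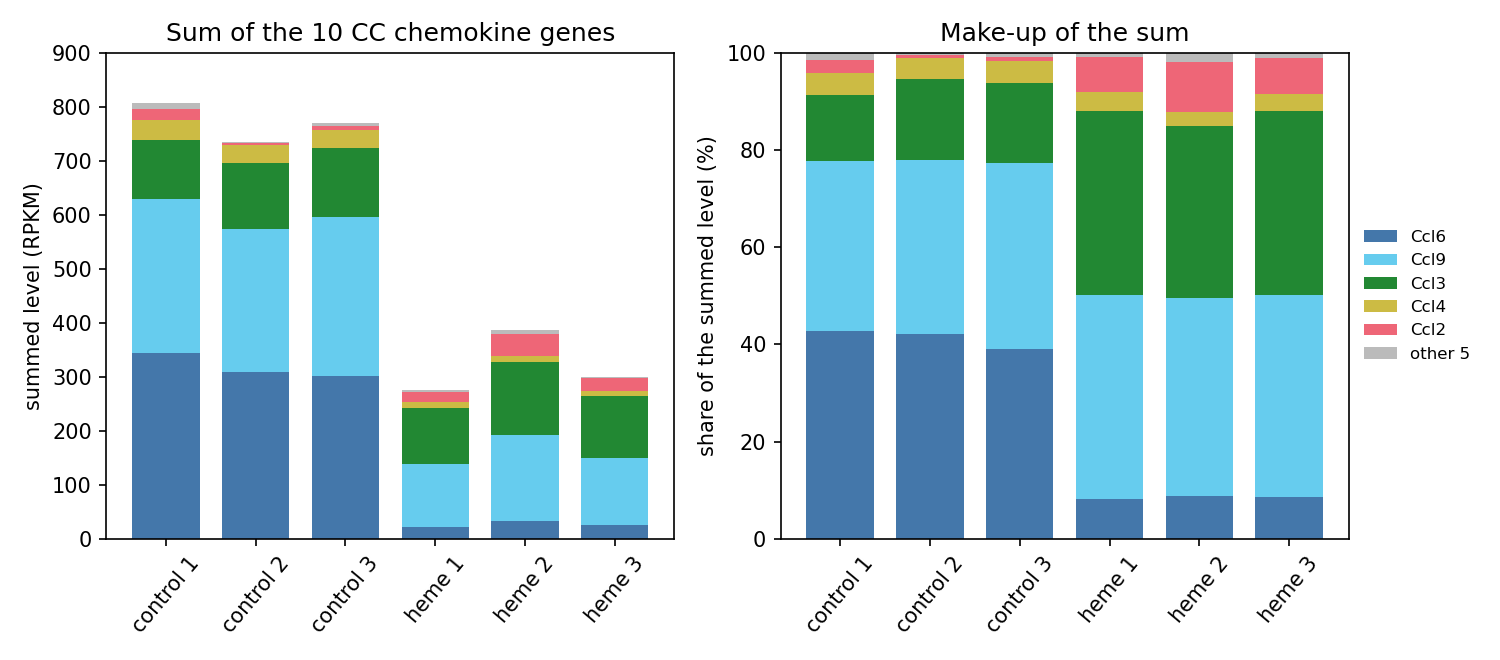
Summed level of the 10 CC chemokine genes (left, RPKM) and share of each gene in the sum (right, %) in every library; colors mark the 5 most abundant genes, and gray the 5 others. Control libraries reach 736 to 808 RPKM and heme libraries 275 to 386 RPKM, and the Ccl6 share shrinks from 39.1 to 42.7% to 8.10 to 8.70%.

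Chemokine mRNAs are known for AU-rich sites in the 3′ UTR, at which RNA-binding proteins shorten the life of an mRNA. The heptamer TATTTAT occurred in the 3′ UTR of Ccl3, Ccl4, Ccl12 and Ccl22, 1 time each, and not in those of the 6 other members. The measured genes with a site are shown with the heptamer in capitals.
Ccl3: tatttgtgacTATTTATtctgaaagac
Ccl4: ttatttctatTATTTATgttttagtta
Ccl12: ggcagtgtgaTATTTATtatgatatct
Among 8485 tested genes with a 3′ UTR of 167 to 2465 bases, the range of the 10 members, 22.6% held the heptamer. The upper end is the 3′ UTR of Ccl9 alone, so these genes were not matched in length to each member. Ccl22, which has a site, was itself not tested. Of the tested members with a site, Ccl4 and Ccl12 were lower and Ccl3 was not called. Ccl5, Ccl6 and Ccl9, with no site, were lower as well.

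The receptors of these ligands went in different directions. Of 11 CC chemokine receptor genes, 5 passed the filter, of which 1 was higher, 2 were lower and 2 were not called. Among all tested genes, 62.5% were called, 31.7% higher and 30.8% lower, so the receptors as a list were not set apart from the background. Ccr1, the receptor gene for CCL3, CCL5, CCL6, CCL7 and CCL9, had 4.94, 3.85 and 4.43 CPM in control and 147, 156 and 164 CPM in heme libraries. This was a 35.2-fold rise without overlap (log2 fold change 5.14, standard error 0.10, adjusted p = 1.55e-09 in edgeR). Ccr2, the receptor gene for CCL2, CCL7 and CCL12, was lower, with 23.5 ± 1.87 and 12.6 ± 2.56 CPM (SD, n = 3; log2 fold change -0.90, adjusted p = 0.000361 in edgeR). Ccr3, whose ligands include CCL24, had a log2 fold change of 0.24 (adjusted p = 0.445 in edgeR), and 0.61 without control replicate 1 (adjusted p = 0.0242). Ccr9, whose exons overlap those of other annotated genes, had 0.04 (adjusted p = 0.940 in edgeR). Ccr4, the receptor gene for CCL22, had 1 count in all 6 libraries together.

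**Figure D5:**
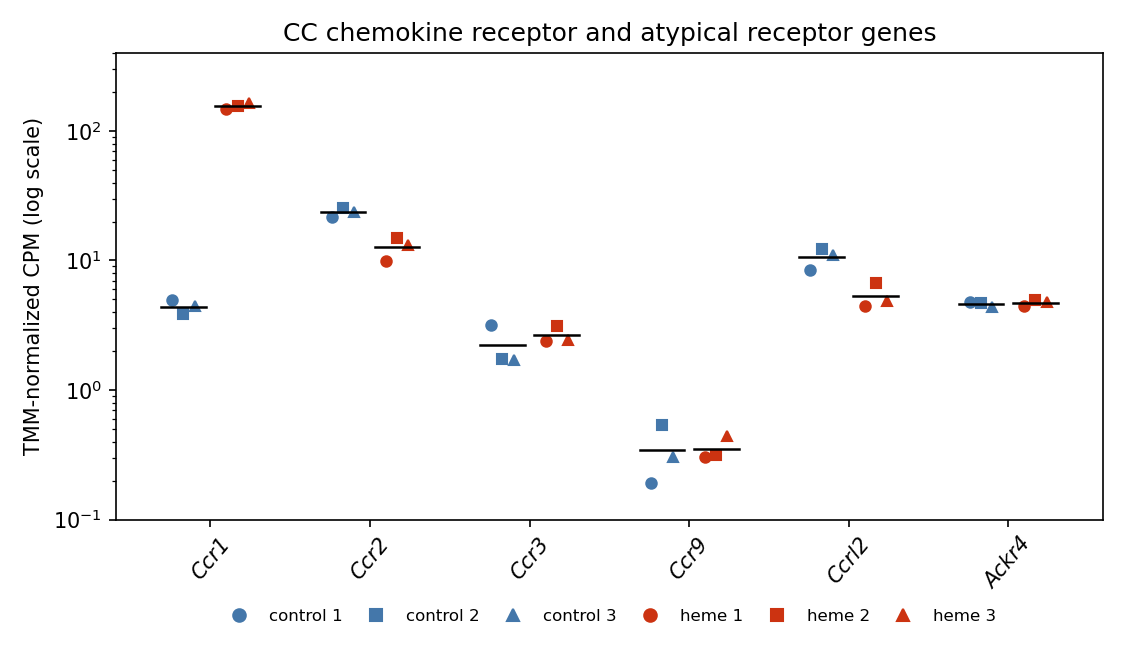
TMM-normalized CPM (log scale) of 4 CC chemokine receptor genes (Ccr1, Ccr2, Ccr3 and Ccr9) and 2 atypical receptor genes in 3 control (blue) and 3 heme-treated (red) libraries; symbols mark the replicate numbers and black lines are group means. Ccr1 lies at 3.85 to 4.94 CPM in control and 147 to 164 CPM in heme libraries, while Ccr2 and Ccrl2 are lower with heme.

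Of 6 genes listed as atypical receptors, most of which bind chemokines without classical signaling, Ccrl2 and Ackr4 passed the filter. Ccrl2 had 10.6 ± 1.98 CPM in control and 5.34 ± 1.17 CPM in heme libraries (SD, n = 3), a log2 fold change of -0.99 (adjusted p = 0.00124 in edgeR). Ackr4, which binds CC chemokines outside the members described here, had a log2 fold change of 0.03 (adjusted p = 0.821 in edgeR). Of the 14 other CC chemokine genes, 9 had no count in any library, among them Ccl11, Ccl17 and Ccl20. Ccl8, a further MCP gene, had 34 counts in the control and 0 in the heme libraries, which is at least 9.11-fold lower when the heme group is set to 3 counts in total. Ccl25 and Ccl27a, the only ones tested, rose by log2 fold changes of 1.03 and 0.69 (edgeR, adjusted p = 0.000309 and 0.0400). Exons of each overlap those of a gene on the other strand, Elavl1 and Il11ra1. The call of Ccl27a was lost in DESeq2 (adjusted p = 0.185) and under most other alternatives (the lowest of these p at 0.0583 and the highest at 0.293).

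Genes that act on CC chemokines or downstream of their receptors were called in both directions, as were all tested genes (62.5% called, 31.7% higher and 30.8% lower). Of 28 genes of chemokine receptor signaling, 4 were higher, 14 lower and 10 not called. The share called in either direction was close to that background, but the share lower was above it and the share higher below it. Those that rose include Grk5, a kinase that desensitizes receptors (log2 fold change 2.15), and Rgs1, an inhibitor of G protein signaling (1.58). Those that fell include the G protein subunit gene Gng2 (-1.01) and the kinase gene Jak3 (-1.05). Of 19 genes of chemokine processing and retention, 18 were tested, of which 8 were higher, 5 lower and 5 not called. The share lower was near that of all tested genes, and the share higher was above it. Mmp12, a macrophage elastase that can cleave chemokines, had 408 ± 43.4 CPM in control and 8232 ± 975 CPM in heme libraries (SD, n = 3), a rise of 4.33 on the log2 scale (adjusted p = 1.18e-08 in edgeR). Sdc3, the gene of a heparan sulfate proteoglycan of the kind that holds chemokines at surfaces, fell by 2.16 on the log2 scale. The heparan sulfate sulfotransferase genes Ndst1 and Ndst2 had log2 fold changes of -1.08 and -1.31. Other heparan sulfate genes of the list were called in both directions, Ext1 and Glce higher (log2 fold changes 0.95 and 0.34), Sdc1 and Sdc4 lower. Sdc2, Ext2 and Hs2st1 were not called.

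Of 31 regulators of CC chemokine transcription and mRNA decay, 12 were higher, 15 lower and 4 not called, beside 31.7% higher and 30.8% lower among all tested genes. Klf4, Cebpb and Fos, transcription factor genes, had log2 fold changes of 1.88, 1.58 and 1.39. Irf7, a factor of the interferon response, had a log2 fold change of -4.83 (edgeR, adjusted p = 1.08e-06). Zfp36l1 encodes a protein that binds AU-rich sites and promotes mRNA decay; it had 75.8, 104 and 85.4 CPM in control and 2.26, 3.91 and 2.16 CPM in heme libraries, with a log2 fold change of -5.01 (adjusted p = 6.69e-08 in edgeR). Exons of Cebpb, Irf7, Zfp36l1, Mmp12, Sdc3, Gng2 and Jak3 overlap those of other annotated genes, and the treatment of shared reads in counting was not stated. Whether any of these genes acts on the chemokine mRNAs was not tested.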

How the data were processed

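RNA of 3 control and 3 heme-treated BMDM cultures was sequenced as stranded TruSeq libraries, 1 file per library. For each Ensembl gene the authors deposited raw read counts, without normalization. Their processing notes list STAR (2.7.0) and featureCounts with GRCm38.p5. Annotation release and strand setting: not given in the sources used here. Symbols, positions and exon lengths came from GENCODE M21 (GRCm38.p6), which shares its chromosomes with p5; 25664 of 25700 genes had a symbol. All 10 members matched by symbol. Promoters came from RefSeq.

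The 12433 genes kept by filterByExpr (minimum count 10) were tested in R 4.3.3 with edgeR 4.0.16 (TMM, glmQLFit, glmQLFTest, condition as the only term), and a Benjamini-Hochberg adjusted p under 0.05 was called. Standard errors and 95% intervals came from that test. Alternatives used DESeq2 1.42.0, limma 3.58.1, other scalings and filters, edgeR's glmTreat with a minimum log2 change of 0.5, and leaving out each library. The procedure was checked on simulated counts. The labels do not say that equal replicate numbers mark the same mouse, so no pairing was used in the main test. Residuals of libraries with equal replicate numbers did not go together (correlations -0.0998, -0.142 and -0.0683). These values cannot decide on a pairing under other numbers.

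Members and lists were chosen with earlier results of these data known. All 10 members are named; of the other lists, up to 3 called genes with the largest rise and up to 3 with the largest fall at an average logCPM of at least 0, and any measured CC chemokine or receptor. Some genes counted in these lists are not reported here. Ackr4, the other heparan sulfate genes and the markers singled out were chosen after their values were seen. Whether a control and a heme culture came from the same mouse is not stated.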

Additional observations from a re-analysis of the deposited data

How the results depend on the processing

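The lower calls of Ccl4, Ccl5, Ccl6, Ccl9 and Ccl12 were the most stable result. With any 1 library left out there were 5 lower members (range 5 to 5), and 3 when at least 1 CPM in 3 libraries was asked for, since Ccl5 and Ccl12 were then not tested. DESeq2 and the test with no filter called 6, the sixth being Ccl24. The higher call of Ccl2 was weak. The number of higher members was 0 with scaling by library size alone, 0 in DESeq2 and 0 when tested against a log2 change of 0.5, and it ranged from 0 to 1 with 1 library left out. Over all genes, scaling by library size alone gave 2579 higher and 5815 lower, and the test against a log2 change of 0.5 gave 3333 calls, 1816 higher and 1517 lower. With 1 library left out, 3457 to 4071 genes were higher and 3253 to 3968 lower. With the replicate number as a block, 3671 genes were higher and 3493 lower, and the members stayed at 1 higher and 5 lower; the numbers share no pairing that the labels state. Of 126 values of the 8 tested members under the alternatives, 111 kept their direction and call, 7 lost the call and 8 changed sign; for 26 genes of the other lists, 392 of 413 kept both. All changes of sign were in genes that were called in neither test. For Ccl7 (-0.06) the estimate was 0.18 in limma, 0.13 with the replicate block, 1.11 without control replicate 1, 0.26 without heme replicate 1 and 0.14 without heme replicate 3, so its range with 1 library left out was -0.73 to 1.11. For Ccl3 (-0.02) that range was -0.13 to 0.06, with 0.02 without control replicate 3, 0.06 without heme replicate 1 and 0.00 (just above 0) without heme replicate 3. For Ccr9 (0.04) it was -0.18 with scaling by library size alone, -0.26 without control replicate 1, -0.03 without control replicate 3 and -0.15 without heme replicate 3. Depth limits Ccl5, Ccl12, Ccl22 and Ccl24, which had at most 11 counts in the heme group. The cause of these shifts was not tested.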
